A study of Homo sapiens with 2 samples.

Results

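Glycolysis splits glucose into pyruvate in the cytosol, and lactate dehydrogenase then reduces pyruvate to lactate. Carcinoma cells commonly run this pathway at a high rate even with oxygen present, and many of its genes are known targets of the hypoxia-inducible factors and of MYC. The 10 genes described here encode the main enzymes of the route from hexokinase to lactate dehydrogenase: HK2, GPI, PFKP, ALDOA, TPI1, GAPDH, PGK1, ENO1, PKM and LDHA. They were chosen by name, and their Entrez identifiers were looked up in the deposited tables, which held 40392 genes in all. All 10 had a row with a value above 0 in both libraries, so all were tested. The step between PGK1 and ENO1, phosphoglycerate mutase, is not among the 10 and is given with the other isozymes.

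The cells were KYSE30, an established line from an esophageal squamous cell carcinoma. The RHCG library came from stable transfectants of an expression vector for human RHCG, a membrane channel for ammonia, and the mock library from stable transfectants of the pIRES2-EGFP vector. The labels do not say whether the transfectants were pools or clones, or how many passages separated them. Each group had 1 library of total RNA depleted of ribosomal RNA, so there is no spread between replicates, no test was possible, and every difference is one between these 2 libraries. RHCG itself was at 413 RPKM in the RHCG library, as its label requires, and was listed at 0 in the mock library. The labels do not say whether the mock cells express RHCG of their own. RPKM means reads per kilobase of transcript, scaled to depth. The scaling corresponded to about 22100000 reads in the RHCG library and about 18900000 in the mock library. Of 13 squamous and basal epithelial markers 11 were listed above 0, KRT5 and PKP1 being the exceptions, and their summed level was 782 RPKM in the RHCG library and 1181 RPKM in the mock library. Of the 11, 7 were lower in the RHCG library. KRT13 had the largest difference in RPKM, at 164 RPKM in the RHCG library and 407 RPKM in the mock library. By ratio KRT6A was lowest, at 3.51 RPKM in the RHCG library and 38.8 RPKM in the mock library. KRT15 came next, at 27.3 RPKM in the RHCG library and 101 RPKM in the mock library. The other 4 were higher, led by EPCAM at 120.0 RPKM in the RHCG library and 66.5 RPKM in the mock library. The part of this in the results below was not tested. The 3 endothelial and 3 erythroid markers were all at 0. The 6 leukocyte markers were at 0 apart from CD68, at 8.89 RPKM in the RHCG library and 15.4 RPKM in the mock library. Of 6 fibroblast markers, COL1A1 was at 1.44 RPKM in the RHCG library and 1.19 RPKM in the mock library, COL3A1 was listed at 0 in the RHCG library and at 1.26 RPKM in the mock library, and the others were at 0.

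Promoters of the 4 enzymes that were lower by 2-fold, and of HK2, the only enzyme that was higher, are shown first, because these genes are textbook targets of factors that read short motifs near the start site. Each sequence is the 250 bases before a RefSeq transcription start on GRCh38.p14, written in the direction of the gene. Capitals mark ACGTG and GCGTG on either strand. These are the core letters that hypoxia-inducible factors bind, and CACGTG, the E-box read by MYC, contains the first of them.
LDHA (chr11:18394313-18394562, plus strand): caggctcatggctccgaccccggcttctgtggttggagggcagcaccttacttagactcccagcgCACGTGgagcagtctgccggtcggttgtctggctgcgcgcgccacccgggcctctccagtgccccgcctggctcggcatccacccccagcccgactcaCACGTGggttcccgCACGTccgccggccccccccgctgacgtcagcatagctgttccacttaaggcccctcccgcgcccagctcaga
ENO1 (chr1:8878687-8878936, minus strand): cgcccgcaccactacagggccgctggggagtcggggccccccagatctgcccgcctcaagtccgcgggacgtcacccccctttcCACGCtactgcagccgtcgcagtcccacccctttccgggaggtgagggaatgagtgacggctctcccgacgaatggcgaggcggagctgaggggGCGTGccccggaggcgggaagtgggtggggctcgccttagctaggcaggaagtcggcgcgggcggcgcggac
PGK1 (chrX:78103998-78104247, plus strand): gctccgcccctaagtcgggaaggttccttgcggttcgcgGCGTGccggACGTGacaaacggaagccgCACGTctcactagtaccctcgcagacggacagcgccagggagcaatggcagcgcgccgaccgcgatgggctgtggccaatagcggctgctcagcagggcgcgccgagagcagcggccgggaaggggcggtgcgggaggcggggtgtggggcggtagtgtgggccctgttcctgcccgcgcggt
PFKP (chr10:3068939-3069188, plus strand): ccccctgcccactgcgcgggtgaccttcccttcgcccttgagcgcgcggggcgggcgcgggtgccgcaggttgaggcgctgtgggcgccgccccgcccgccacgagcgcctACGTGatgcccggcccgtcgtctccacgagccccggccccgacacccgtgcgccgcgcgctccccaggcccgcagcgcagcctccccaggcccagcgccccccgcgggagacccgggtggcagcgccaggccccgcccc
HK2 (chr2:74833877-74834126, plus strand): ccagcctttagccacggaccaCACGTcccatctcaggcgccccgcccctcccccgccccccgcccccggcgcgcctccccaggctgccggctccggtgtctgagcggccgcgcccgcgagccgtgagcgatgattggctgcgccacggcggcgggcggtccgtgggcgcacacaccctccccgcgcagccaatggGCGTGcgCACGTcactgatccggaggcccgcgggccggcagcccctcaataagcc

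The LDHA window held 3 marked sites. They began 185, 87 and 73 bases before the start, and the first and second of them were whole CACGTG boxes. PGK1 held 3 sites, beginning 211, 202 and 183 bases before the start. ENO1 held 2 sites, both of the GCGTG form and none of the ACGTG form, PFKP held 1 site, and HK2 held 3. Where a gene had several RefSeq starts, the window with the most ACGTG sites was printed, or the first along the chromosome in a tie. Over every start, ACGTG occurred in 8 of the 10 enzymes (all but ENO1 and PKM), against 25.3% of 15843 protein-coding genes. CACGTG occurred in 4 of the 10 (HK2, ALDOA, GAPDH and LDHA), against 9.73%. The other core, GCGTG, occurred in 6 of the 10, against 45.6%, and GGGCGG, the GC box read by SP1, in 9 of the 10, against 62.1%. By window, ACGTG was in 11 of 18 windows of the enzymes and in 20.2% of 22199 windows of all protein-coding genes. Matches describe letters in a window and not bound sites. ACGTG was in HK2, the only higher enzyme, and in every lower enzyme but ENO1 and PKM. A link between these letters and the ratios was not tested.

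Along the pathway, 9 of the 10 enzymes were lower in the RHCG library than in the mock library, and HK2 alone was higher. Over all genes tested, 50.5% lay below 0. In RNA from a whole culture, fewer cells that express a gene and less RNA per cell cannot be told apart. Ratios are log2((RHCG + 1)/(mock + 1)) in RPKM. A gene is called lower at −1 or less and higher at 1 or more, that is, past 2-fold on this scale. The added 1 RPKM draws ratios towards 0, so a gene just past 2-fold in plain RPKM can fall short of the call. By the calling rule 4 of the 10 were lower (LDHA, ENO1, PGK1 and PFKP) and 0 were higher. Of the 12857 genes tested, those listed above 0 in at least 1 library, 3.30% were lower and 2.74% higher. A listed 0 was set to 1 RPKM beforehand, so the filter on a mean of 1 RPKM removed no gene. Genes close to that floor are therefore part of these shares. The median log2 ratio of the 10 enzymes was −0.85, against −0.01 over all genes tested. Among the 1648 genes averaging 50 RPKM or more, a level that all the enzymes but HK2 exceeded, 52.4% lay below 0, 4.98% were lower, 3.82% were higher, and the median was −0.03. At 1.5-fold, 6 of the 10 were lower, ALDOA and PKM being added, against 11.5% of all genes tested.

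**Figure D1:**
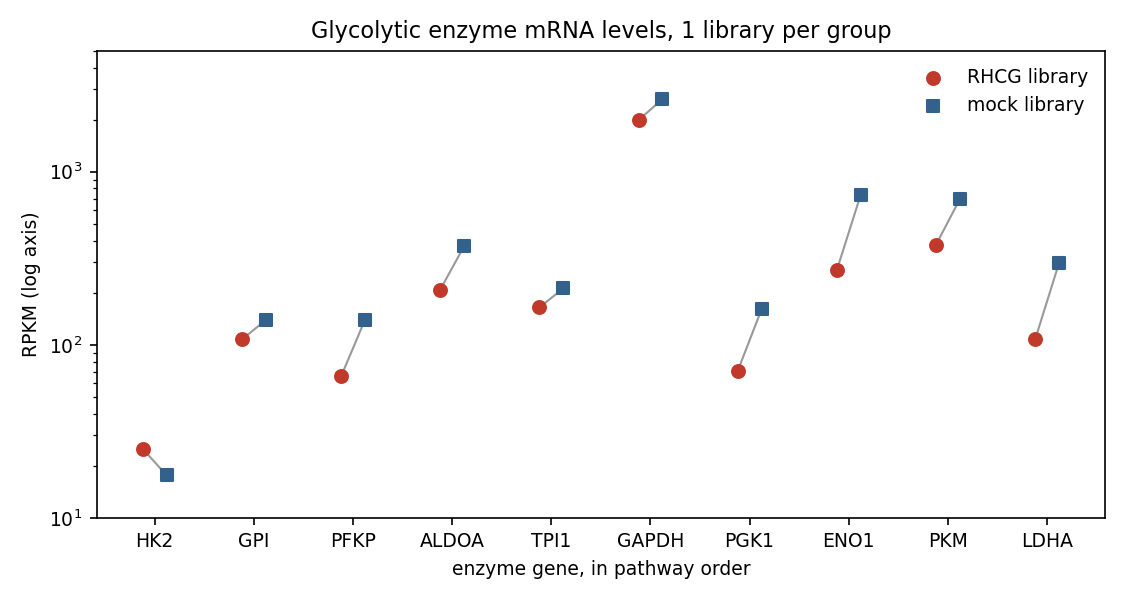
RPKM on a log axis for the 10 enzyme genes in pathway order, with the RHCG library as circles and the mock library as squares (1 library each, no error bars possible). The circle lies below the square for all genes but HK2, which was at 25.0 RPKM in the RHCG library and 17.6 RPKM in the mock library.

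The pathway opens with reactions that spend ATP. HK2, the inducible hexokinase that traps glucose in the cell as its phosphate, was at 25.0 RPKM in the RHCG library and 17.6 RPKM in the mock library, a log2 ratio of 0.48. Of all genes tested, 84.5% had a lower ratio. It was the least abundant of the 10 in both libraries, at rank 2901 of the protein-coding genes in the RHCG library and rank 3857 in the mock library. GPI, which converts glucose phosphate to fructose phosphate, was at 107 RPKM in the RHCG library and 139 RPKM in the mock library (log2 ratio −0.37). PFKP, the platelet form of phosphofructokinase and a main control point of the pathway, was at 65.7 RPKM in the RHCG library and 139 RPKM in the mock library. Its log2 ratio of −1.07 was just past the 2-fold line.

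ALDOA, the aldolase that cleaves the fructose bisphosphate into trioses, was at 208 RPKM in the RHCG library and 371 RPKM in the mock library (log2 ratio −0.83). This lay just inside the 2-fold line, as did PKM further down. TPI1, which interconverts the trioses, was at 164 RPKM in the RHCG library and 211 RPKM in the mock library, a log2 ratio of −0.36. GPI and TPI1, both isomerases, had ratios close to each other and to that of GAPDH (−0.40). Together the 5 enzymes from HK2 to TPI1 had a median of −0.37, with 1 called lower, and their summed level in the RHCG library was 0.650 times that in the mock library.

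From GAPDH onwards the pathway returns ATP. GAPDH, the triose phosphate dehydrogenase that is often used as a reference gene, was at 1989 RPKM in the RHCG library and 2622 RPKM in the mock library (log2 ratio −0.40). It was the second most abundant of all protein-coding genes in each library. PGK1, the kinase of the first ATP-yielding step, was at 70.6 RPKM in the RHCG library and 160 RPKM in the mock library, a log2 ratio of −1.17. ENO1, the main enolase, which makes phosphoenolpyruvate, was at 270 RPKM in the RHCG library and 734 RPKM in the mock library. Its log2 ratio was −1.44, and 0.996% of the genes tested had a lower one.

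PKM, the pyruvate kinase of proliferating cells and muscle, was at 378 RPKM in the RHCG library and 693 RPKM in the mock library (log2 ratio −0.87). The tables give 1 value per gene, so its splice forms PKM1 and PKM2 were not told apart. LDHA, the lactate dehydrogenase subunit that favours lactate formation, was at 107 RPKM in the RHCG library and 296 RPKM in the mock library. Its log2 ratio of −1.45 was the lowest of the 10, and 0.972% of the genes tested had a lower one. The 5 enzymes from GAPDH to LDHA had a median of −1.17, with 3 called lower, and their summed level in the RHCG library was 0.625 times that in the mock library. GAPDH dominates that sum. Without it, the 4 other later enzymes summed to 827 RPKM in the RHCG library and 1882 RPKM in the mock library, a ratio of 0.439. Both medians rest on few genes.

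**Figure D2:**
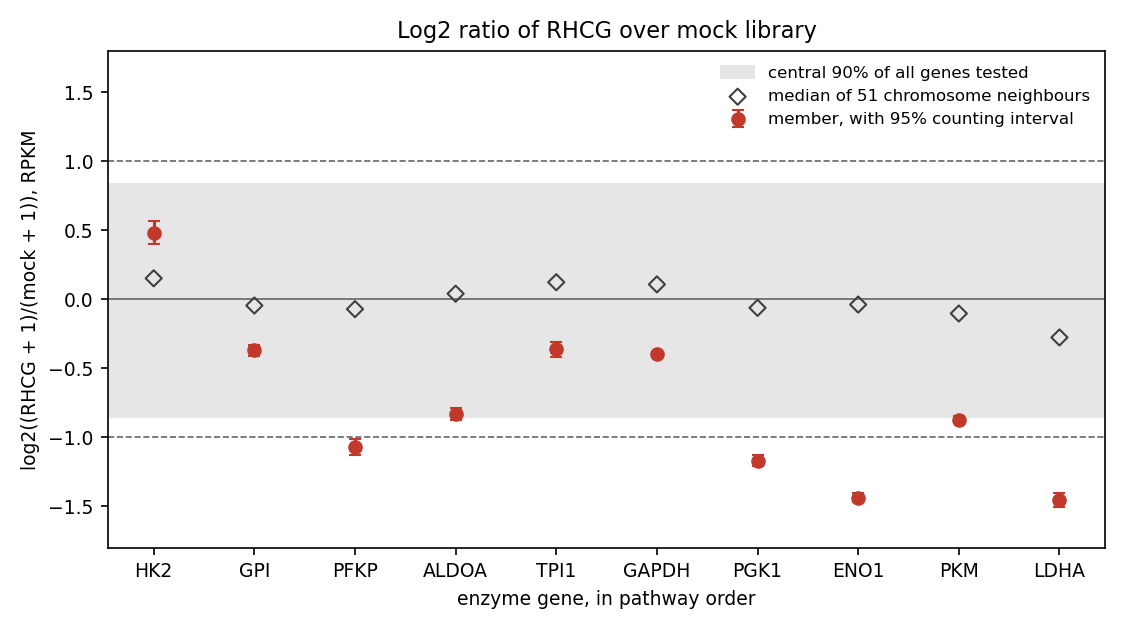
Log2 ratio of RHCG over mock for the 10 enzymes in pathway order (circles, with approximate 95% counting intervals that hold no variation between cultures), the central 90% of all 12857 genes tested (grey band), and the median of 51 neighbouring protein-coding genes (diamonds). PFKP, PGK1, ENO1 and LDHA lie below the dashed line at −1, and PKM lies just below the grey band.

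The depth of these genes made counting error small. LDHA rested on about 4471 reads in the RHCG library and about 10568 in the mock library. Its plain ratio of RHCG over mock was 0.363, with an approximate 95% exact (Clopper-Pearson) counting interval of 0.351 to 0.376. For PFKP the ratio was 0.472, with an interval of 0.454 to 0.491, which stayed below 0.5-fold. For HK2 the ratio was 1.42, with an interval of 1.34 to 1.504. Such intervals cover counting error only. They say nothing of differences between cultures, transfectants or library preparations.

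The order of the enzymes by level differed between the libraries. In the RHCG library GAPDH was followed by PKM, ENO1, ALDOA, TPI1, GPI, LDHA, PGK1, PFKP and HK2. In the mock library GAPDH was followed by ENO1, PKM, ALDOA, LDHA, TPI1, PGK1, PFKP, GPI and HK2. GPI and LDHA, at 107.4 RPKM each in the RHCG library, and PFKP and GPI, at 139.1 and 138.9 RPKM in the mock library, did not differ beyond counting error, whereas the other neighbours in each order did. An order between genes also depends on the transcript length used for each, which counting error does not cover. LDHA stood at rank 501 of the protein-coding genes in the RHCG library and at rank 143 in the mock library, PGK1 at 901 in the RHCG library and 315 in the mock library, and ENO1 at 126 in the RHCG library and 37 in the mock library. Summed over the 10, the enzymes were at 3386 RPKM in the RHCG library and 5383 RPKM in the mock library. This was 1.06% of the summed RPKM of all protein-coding genes in the RHCG library and 1.58% in the mock library. GAPDH made up 58.7% of that sum in the RHCG library and 48.7% in the mock library. Without GAPDH the sum in the RHCG library was 0.506 times that in the mock library.

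Most steps have several isozymes, and the share of each gene differed between the libraries mainly for hexokinase, phosphofructokinase and lactate dehydrogenase. For hexokinase, HK1, the broadly expressed form, was at 45.2 RPKM in the RHCG library and 46.2 RPKM in the mock library (log2 ratio −0.03), and HK2 made up 35.6% of the step in the RHCG library and 27.6% in the mock library. HK3 and HKDC1 were listed at 0 in both. Summed over isozymes, hexokinase was at 70.2 RPKM in the RHCG library and 63.8 RPKM in the mock library, which made it the only step whose sum was higher in the RHCG library.

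For phosphofructokinase, PFKM, the muscle form, was called lower with PFKP. It was at 20.1 RPKM in the RHCG library and 50.9 RPKM in the mock library (log2 ratio −1.30). PFKL, the liver form, was at 109 RPKM in the RHCG library and 133 RPKM in the mock library (−0.28), and it made up 56.0% of the step in the RHCG library and 41.1% in the mock library. PFKP, the leading form in the mock library at 43.1%, made up 33.7% in the RHCG library. For lactate dehydrogenase, LDHB, the subunit that favours pyruvate formation, was at 184 RPKM in the RHCG library and 262 RPKM in the mock library (−0.51). LDHA therefore made up 36.9% of the step in the RHCG library and 53.0% in the mock library, and the leading subunit was LDHB in the RHCG library and LDHA in the mock library.

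**Figure D3:**
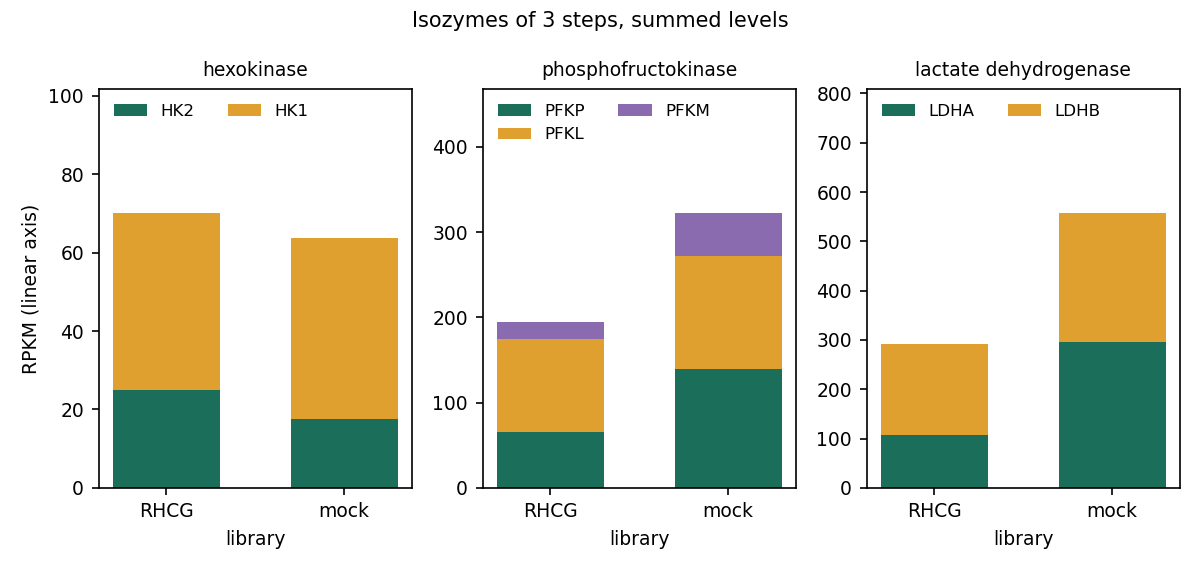
Summed RPKM (linear axis) of the isozymes of hexokinase, phosphofructokinase and lactate dehydrogenase, with the RHCG library on the left and the mock library on the right of each panel (1 library each). LDHA takes 36.9% of its bar in the RHCG library and 53.0% in the mock library.

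The remaining steps had 1 dominant gene. ENO1 made up 98.7% of the enolase sum in the RHCG library and 99.4% in the mock library. ENO2, the neuronal form, was at 1.19 RPKM in the RHCG library and 2.27 RPKM in the mock library, and ENO3, the muscle form, at 2.29 RPKM in the RHCG library and 1.93 RPKM in the mock library. ALDOC was listed at 0 in the RHCG library and at 1.58 RPKM in the mock library. GAPDHS, the sperm form, was at 14.8 RPKM in the RHCG library and 11.9 RPKM in the mock library. Phosphoglycerate mutase, the step between PGK1 and ENO1, followed its neighbours in direction: PGAM1 was at 69.6 RPKM in the RHCG library and 129 RPKM in the mock library, a log2 ratio of −0.88. PGAM4, a retrotransposed near-copy of PGAM1 that can share its reads, was at 14.0 RPKM in the RHCG library and 27.5 RPKM in the mock library. PGAM2, the muscle form, was at 4.26 RPKM in the RHCG library and 6.94 RPKM in the mock library. Of the 24 other isozymes and side steps of glycolysis 14 were tested, 1 was called lower (PFKM), 0 were called higher, 12 lay below 0, and the median was −0.44.

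Several of these genes have processed pseudogenes, which can take reads from the parent gene. The tables held 87 pseudogene rows named after the 10 enzymes, 64 of them copies of GAPDH. Of the 87, 85 were listed at 0 in both libraries. The exceptions were TPI1P2, at 4.27 RPKM in the RHCG library and 3.04 RPKM in the mock library, and TPI1P3, at 4.74 RPKM in the RHCG library and 6.87 RPKM in the mock library, levels far below that of TPI1. How reads with several matches were handled is not given in the sources used here.

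Because ratios in these libraries can shift along stretches of a chromosome, each enzyme was set beside the 51 protein-coding genes nearest to it in order. The medians of those neighbours lay between −0.28 (LDHA) and 0.15 (HK2). Each of the 9 lower enzymes lay below the median of its neighbours, and HK2 lay above its own. With that median taken off, LDHA was at −1.18, ENO1 at −1.40 and PGK1 at −1.11, still past 2-fold, PFKP was at −0.999, just short of it, and HK2 was at 0.33. GAPDH and TPI1, which lie on the same arm of chromosome 12, had raised neighbourhoods (0.11 and 0.12) although both were lower themselves. Of the 18 genes that flank the 9 lower enzymes directly in this order, 10 had a ratio below 0 and 8 above. These ranged from −0.92 for PGAM4, beside PGK1, to 1.06 for NOP2, a ribosomal RNA methyltransferase beside GAPDH. HK2, at 0.483, did not exceed the genes that flank it directly, SEMA4F (0.578) and POLE4 (0.498).

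Around the pathway, 8 connected lists had medians between −0.25 and 0.18. Their counts follow the calling rule with the added 1 RPKM, and some of their genes that were past 2-fold in plain RPKM were not called. Regulators of glycolytic flux had a median of −0.08 over 8 genes tested, with 1 lower and 0 higher. The lower gene was PFKFB4, a bifunctional enzyme that sets the level of an activator of phosphofructokinase, at 1.44 RPKM in the RHCG library and 4.34 RPKM in the mock library. Its log2 ratio was −1.13, and its approximate 95% counting interval, −1.63 to −0.65, crossed the line at −1. For glucose uptake and lactate export the median was −0.06 over 10 genes, and 0 passed 2-fold in either direction. The most abundant of these, SLC16A3, the lactate exporter MCT4, was at 307 RPKM in the RHCG library and 470 RPKM in the mock library (log2 ratio −0.61). Its chaperone BSG was at 180 RPKM in the RHCG library and 211 RPKM in the mock library (−0.23). SLC2A1, the glucose transporter GLUT1, stood on the other side with HK2, at 128 RPKM in the RHCG library and 67.5 RPKM in the mock library (0.91). This gene falls outside the naming rule and was singled out after its value was seen.

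Past pyruvate, the entry into mitochondria had a median of 0.04 over 12 genes, with 1 higher and 1 lower. PDP1, the phosphatase that activates pyruvate dehydrogenase, was at 32.7 RPKM in the RHCG library and 15.02 RPKM in the mock library (log2 ratio 1.07). PDK2, a kinase that inactivates it, was at 4.81 RPKM in the RHCG library and 11.02 RPKM in the mock library (−1.05). The counting intervals of PDP1 (0.98 to 1.17) and PDK2 (−1.27 to −0.83) both crossed the 2-fold line. The tricarboxylic acid cycle had a median of −0.08 over 20 genes, with 0 lower and 1 higher, SUCLA2, a subunit of succinyl-CoA ligase, at 11.3 RPKM in the RHCG library and 5.06 RPKM in the mock library. SUCLA2 lies on chromosome 13, and the median of its neighbours was 0.42. Its log2 ratio of 1.02 had a counting interval of 0.79 to 1.26, which crossed the 2-fold line. Gluconeogenesis had a median of −0.25 over 6 genes (−0.54 when a listed 0 was kept as 0 RPKM, since FBP1 was listed at 0 in the RHCG library) with 1 higher, PCK2, the mitochondrial carboxykinase that makes phosphoenolpyruvate, at 61.5 RPKM in the RHCG library and 11.7 RPKM in the mock library (2.30).

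The pentose phosphate pathway, which branches off after hexokinase, had a median of −0.08 over 8 genes, with 1 lower and 1 higher. PGD, its second oxidative enzyme, was at 53.2 RPKM in the RHCG library and 114 RPKM in the mock library (log2 ratio −1.08). RPIA, the ribose phosphate isomerase, was at 42.2 RPKM in the RHCG library and 19.3 RPKM in the mock library (1.09). The counting interval of RPIA, 0.96 to 1.22, crossed the 2-fold line, and that of PGD, −1.16 to −1.01, did not. Side branches and shuttles had a median of 0.04 over 11 genes, with 0 lower and 1 higher, GFPT1, the entry enzyme of hexosamine synthesis, at 21.2 RPKM in the RHCG library and 9.85 RPKM in the mock library. Its log2 ratio of 1.03 had a counting interval of 0.95 to 1.12, which also crossed the 2-fold line.

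Regulators of glycolytic gene transcription had a median of 0.18 over 16 genes, with 2 higher and 0 lower. Of the 16, 11 lay above 0 and 5 below. The higher genes were the arrestin TXNIP, which restrains glucose uptake and is a target of MondoA, at 1141 RPKM in the RHCG library and 142 RPKM in the mock library, and its relative ARRDC4, at 18.01 RPKM in the RHCG library and 4.07 RPKM in the mock library. Neither of these arrestins is itself a transcription factor. Among the subunits of the hypoxia-inducible factors, HIF1A was at 24.9 RPKM in the RHCG library and 22.5 RPKM in the mock library (log2 ratio 0.14). EPAS1, the alpha subunit of HIF-2, was the most abundant of them, at 65.0 RPKM in the RHCG library and 34.7 RPKM in the mock library (0.88), and the median of its chromosomal neighbours was 0.43. Their partner ARNT was at 18.5 RPKM in the RHCG library and 12.1 RPKM in the mock library (0.57). MYC was at 222 RPKM in the RHCG library and 155 RPKM in the mock library (0.51). Messages of such factors do not report their protein or its activity. These 4 genes, all above 0, were singled out after their values were seen, and none of the 5 genes below 0 is among them.

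**Figure D4:**
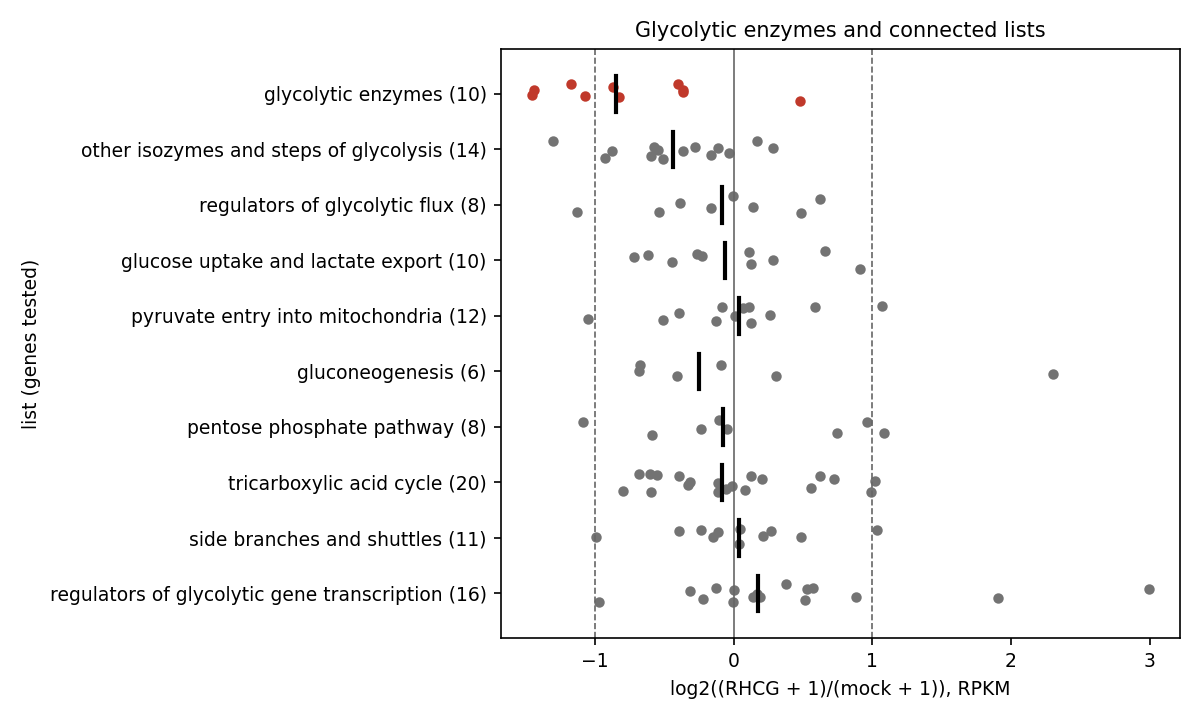
Log2 ratio of RHCG over mock for each gene tested (dots) in the glycolytic enzymes (top, red) and 9 connected lists, with list medians as black bars, the number of genes tested in brackets and dashed lines at 2-fold. The median of the enzymes is −0.85 and those of the other lists lie between −0.44 and 0.18.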

How the data were processed

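RNA sequencing values of 2 libraries, 1 per group, were used as deposited. The authors deposited log2 values of RPKM under the header RPKM, with no value below 0. The submitters' processing notes name bedtools 2.25.0 and the build hg19. Which aligner and counter were run is not given in the sources used here. Rows (40448 per table, 112 with a copy suffix) were unlogged and summed by Entrez gene, and genes listed at 0 were set to 1 RPKM. Such a 0 may be 1 RPKM or less, no reads or not counted.

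The log2 scale was checked on small RNA genes. With base 2, RPKM times length lay within 0.002 reads of a whole number for 37.0% of 173 values under 20 reads in the RHCG library and 24.2% of 182 in the mock library, against at most 5.95% with base e or 10. Counts could not be recovered for most genes, so no count test was run. Approximate reads used the median length of GENCODE 29 transcripts with a RefSeq accession (97.2% of genes tested). GC box and E-box letters were searched in the 250 bases before each RefSeq start, overlapping matches merged, and all 10 enzymes matched that table. GCGTG was added to the search after the sequences were seen.

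Named genes were the 10 enzymes, their isozymes with a mean of at least 1 RPKM, every called gene of the other lists and the 2 most abundant of a list in which no gene was called. The enzymes and lists were chosen with earlier results of these data known. A gene of the lists is not reported here. The alternatives tried are given in the closing section. The calling rule was tested on simulated data that held counting error only. They had no variation between cultures or transfectants, so they cannot show how the rule fares with it. Values were computed with pandas 2.3.3 and numpy 2.4.6, intervals with scipy 1.17.1 and trends with statsmodels 0.14.6 under Python 3.11.15. Plots were drawn with matplotlib 3.10.9.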

Additional observations from a re-analysis of the deposited data

How the results depend on the processing

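No paired analysis was possible because each group had 1 library, and no library could be left out. LDHA, ENO1 and PGK1 were past 2-fold lower under all 9 alternatives other than the 1.5-fold call, which loosens the rule. PFKP was not with the shift of 51 neighbouring genes removed (−0.999) or with a GC and length trend removed (−0.96), and each of these left 3 of the 10 enzymes lower. Over all genes, 363 were lower with the neighbour shift removed and 372 with the trend removed, against 424 in the main setting. Changes to the filter on low values, to the row used per gene or to listed 0 values left every enzyme ratio unchanged. Those settings are therefore no check on the calls of the enzymes. The median of the 10 enzymes, −0.85, was −0.77 with the GC and length trend removed, the only setting that took it outside −0.884 to −0.816. That range runs from the median of the enzymes' lower counting bounds to the median of their upper ones. It is not a counting interval of the median itself, and the value with the neighbour shift removed, −0.819, lay at its edge. The median of the other glycolysis genes, −0.44, was −0.56 at a pseudocount of 0.1 RPKM, −0.54 when a listed 0 was kept as 0 RPKM and −0.57 after removal of the neighbour shift. That of gluconeogenesis, −0.25 over 6 genes, was also −0.54 with a listed 0 kept as 0 RPKM. The pentose phosphate median, −0.08, was 0.17 after removal of the neighbour shift and 0.035 after removal of the GC and length trend, and that of the tricarboxylic acid cycle was −0.22 with the neighbour shift removed. The cause was not tested. Over all genes the 424 lower and 352 higher numbered 673 and 533 at the smaller pseudocount, 1004 and 686 when a listed 0 was kept as 0 RPKM, and 1481 and 1447 at 1.5-fold, each by loosening the rule. Median-of-ratios and trimmed mean scaling shifted ratios by about 0.01. Counting intervals of the enzymes were narrow, and the limit is that each group had 1 library.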

Other observations

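GAPDH is a common denominator in expression assays, and it was itself lower in the RHCG library, so the other enzymes were also expressed relative to it, a choice made after the values were seen. Relative to GAPDH, LDHA was at 5.40% in the RHCG library and 11.3% in the mock library, a log2 ratio of −1.06, and ENO1 was at 13.6% in the RHCG library and 28.0% in the mock library, a log2 ratio of −1.04. PGK1 (−0.78) and PFKP (−0.68) no longer passed 2-fold on this scale, and 2 of the 9 other enzymes did. These are plain ratios, without the 1 RPKM added elsewhere. The share of all genes past 2-fold lower on this scale was not computed, so that count has no background beside it. HK2 relative to GAPDH had a log2 ratio of 0.90, and GPI and TPI1, at 0.03 and 0.04, kept nearly the same proportion to GAPDH in both libraries. With 1 library per group none of these differences was tested.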
